A study of Mus musculus with 18 samples.

Results

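Histone H3 dimethylated at lysine 79 (H3K79me2) was described in Th1 cells, the interferon-gamma-producing class of CD4 T helper cells, from the 3 broad peak lists that the authors deposited for H3K79me2 ChIP-seq of Th1 cells. The lists were chosen by their labels as Th1 H3K79me2 libraries and held 130199 of the 395698 H3K79me2 peaks of the series. The series asks what DOT1L does in T helper cells and comprised 18 samples, of which 9 were H3K79me2 libraries with a peak list and 9 were inputs without one. The Th1 cells were made from enriched mouse CD4 T cells by 4 days of culture with IL-2, IL-12 and a blocking antibody to IL-4, on plates coated with antibodies to CD3 and CD28. They came from mice that carry a YFP reporter of Ifng and were sorted as YFP-positive cells, so that Ifng itself defined the sample. Their genotype label was WT, and age and sex were not given in the labels. Per library, 1500000 cells were fixed for 10 min in 0.6% formaldehyde and precipitated with 2 µg of the antibody ab3594. Whether separate mice or cultures gave the 3 libraries is not in the labels, so every SD below is a spread between libraries that may be technical. No test was made, and all values are descriptions of these 3 lists.

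H3K79 methylation is written by DOT1L, the methyltransferase responsible for this mark in mammals. DOT1L travels with proteins of the transcription elongation machinery, and the dimethyl mark is known as a feature of the 5′ part of transcribed gene bodies. In T cells DOT1L is known to restrain parts of the Th1 programme.

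Peaks of a list did not overlap each other, and their union within an annotated gene is called the domain of that gene. A gene was called fully covered if 100% of its annotated span lay under peaks in all 3 lists, never covered if no base did in any list, and partly covered otherwise. Of 21627 protein-coding genes on chromosomes 1 to 19 and X, 902 (4.17%) were fully covered, 10264 (47.5%) were partly covered and 10461 (48.4%) were never covered. The span includes exons, introns and UTRs.

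The sequence at the start of a gene differed between these classes, and 6 of the promoters examined are shown. They were taken from the RefSeq promoter table on GRCm38.p6, which reaches from 250 bases before to 50 bases after an annotated start and held an entry for 17273 of the 21627 genes. Capitals mark matches on either strand to the GC box GGGCGG, to the ETS core CCGGAA or to the TATA box TATAAA. The first 4 belong to fully covered genes that act in T cells, and the last 2 to never covered genes of muscle and brain.
Bcl2, minus strand, chr1:106714241-106714540: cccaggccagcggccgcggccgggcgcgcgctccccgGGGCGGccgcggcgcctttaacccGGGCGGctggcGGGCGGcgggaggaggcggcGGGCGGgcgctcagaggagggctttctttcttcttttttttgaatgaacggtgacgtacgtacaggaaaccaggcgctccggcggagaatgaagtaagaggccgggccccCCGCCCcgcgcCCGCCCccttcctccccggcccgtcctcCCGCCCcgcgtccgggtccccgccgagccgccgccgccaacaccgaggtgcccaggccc
Bcl11b, minus strand, chr12:108003365-108003664: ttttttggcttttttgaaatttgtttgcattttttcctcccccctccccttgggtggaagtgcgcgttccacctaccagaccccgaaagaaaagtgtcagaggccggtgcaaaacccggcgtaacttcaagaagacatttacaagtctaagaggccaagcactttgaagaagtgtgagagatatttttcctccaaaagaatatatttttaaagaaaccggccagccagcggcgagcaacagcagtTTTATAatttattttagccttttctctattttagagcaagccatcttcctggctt
Foxo1, plus strand, chr3:52268087-52268386: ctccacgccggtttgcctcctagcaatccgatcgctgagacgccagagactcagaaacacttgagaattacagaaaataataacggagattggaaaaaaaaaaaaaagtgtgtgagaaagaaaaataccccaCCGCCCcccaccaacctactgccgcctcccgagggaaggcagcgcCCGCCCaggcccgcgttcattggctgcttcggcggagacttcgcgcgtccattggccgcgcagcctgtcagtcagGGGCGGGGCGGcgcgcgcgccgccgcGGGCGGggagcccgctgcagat
Klf2, plus strand, chr8:72318812-72319111: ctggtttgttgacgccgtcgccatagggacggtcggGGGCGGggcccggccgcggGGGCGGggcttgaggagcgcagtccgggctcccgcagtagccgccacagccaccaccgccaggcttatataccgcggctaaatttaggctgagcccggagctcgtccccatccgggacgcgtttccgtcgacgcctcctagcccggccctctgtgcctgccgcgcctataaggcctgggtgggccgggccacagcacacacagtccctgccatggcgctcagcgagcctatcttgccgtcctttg
Dmd, plus strand, chrX:82948620-82948919: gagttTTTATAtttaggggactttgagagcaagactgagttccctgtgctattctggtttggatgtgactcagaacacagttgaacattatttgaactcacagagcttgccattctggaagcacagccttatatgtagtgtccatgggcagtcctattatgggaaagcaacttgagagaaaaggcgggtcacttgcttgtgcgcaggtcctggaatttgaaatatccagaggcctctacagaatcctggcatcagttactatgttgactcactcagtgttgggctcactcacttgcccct
Cntnap2, plus strand, chr6:45059811-45060110: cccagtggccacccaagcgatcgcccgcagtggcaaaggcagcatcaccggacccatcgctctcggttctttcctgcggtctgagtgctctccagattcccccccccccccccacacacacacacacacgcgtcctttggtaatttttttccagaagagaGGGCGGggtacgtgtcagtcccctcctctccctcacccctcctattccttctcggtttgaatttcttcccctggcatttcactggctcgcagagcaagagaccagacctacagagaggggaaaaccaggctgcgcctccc

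The Bcl2 promoter was 76% G or C and held 44 CpG dinucleotides and 7 GC boxes. The Foxo1 promoter held 31 CpG and 4 GC boxes, counted without overlap. The Klf2 promoter held 32 CpG and 2 GC boxes. The Bcl11b window departed from this, with 43% G or C, 9 CpG, no GC box and 1 TATA box. Of the fully covered genes examined but not shown, Lrrc8c and Znrf1 held 44 and 45 CpG. Zbtb7b held 8 CpG and 3 GC boxes, and Gfi1 held 16 CpG and no GC box. The Dmd window, at a start 134206 bases inside the annotated gene, had 2 CpG and 1 TATA box, and the Cntnap2 window had 14 CpG and 1 GC box. Peaks covered 100% of the Bcl2 and Foxo1 windows in all 3 lists. The Bcl11b window was also at 100%. It sits at a start 731 bases inside that fully covered gene, so its value was fixed by the class. At Klf2, whose whole annotated gene was covered, the window itself lay under peaks for 19.7%, 23.7% and 29.0% of its bases.

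CpG-rich promoters, defined by more than 50% G or C and a ratio of observed to expected CpG above 0.6, made up 66.5% of 728 fully covered and 69.5% of 8328 partly covered genes, but 20.5% of 8217 never covered genes. Over all 17273 promoters the share was 46.1%. The ETS core CCGGAA, which factors such as ETS1 and GABPA bind, was found in 35.0% of fully covered, 29.7% of partly covered and 7.47% of never covered genes, against 19.3% of all promoters. In genes of at least 5 kb the fully and partly covered shares were closer, at 31.5% and 29.9%, beside 8.54% of never covered genes. Among 208 genes with a mean domain over 100 kb the share was 17.3%, below that of all promoters. Within CpG-rich promoters alone the ETS core still stood at 44.4% of 484 fully covered, 35.0% of 5789 partly covered and 15.2% of 1687 never covered genes, and in the remaining promoters its shares were 16.4%, 17.6% and 5.47%. The GC box GGGCGG was found in 62.2%, 64.3% and 27.9% of fully, partly and never covered genes and in 46.9% of all promoters. Within CpG-rich promoters its shares were close together at 75.2%, 77.1% and 76.9%, and in the remaining promoters they were 36.5%, 35.1% and 15.2%. The TATA box TATAAA was found in 8.93% of fully covered, 6.38% of partly covered and 21.0% of never covered genes, against 13.4% of all promoters. Within CpG-rich promoters its shares were 7.23%, 4.32% and 5.69%, highest in fully covered genes, and in the remaining promoters they were 12.3%, 11.1% and 24.9%. The CCAAT box CCAAT was nearly level at 37.0%, 39.7% and 39.6%, against 39.6% of all promoters. The T-box sequence AGGTGTGA, recognised by factors such as TBX21, was rare in every class at 1.10%, 0.937% and 1.45%, against 1.19% of all promoters. A match is a run of letters and not a measured binding site.

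The lists carried marks on T cell genes and not on most genes of other blood lineages. Over all genes, 4.17% were fully covered and 48.4% were never covered. All 9 T cell markers had a domain. Cd3e and Cd3d (signalling chains of the T cell receptor), Cd2, Lat and Thy1 were fully covered, and Lck, Cd5, Cd3g and Cd4 had mean coverage of 98.6%, 99.7%, 94.0% and 83.2%. Of 7 B cell genes, Cd79a was fully covered and 6 had no covered base, among them Cd79b, Ms4a1, Pax5, Blk and Ebf1. Of the myeloid genes, Itgam stood at 1.42%, and Adgre1, Cd14, Csf1r and Lyz2 were at 0 in all 3 lists. Cd8a was at 0, Cd8b1 at 9.01%, and the erythroid gene Hbb-bt at 0 beside 21.7% for Klf1. The NK cell genes gave a mixed picture. Ncr1 was at 0 and Klrb1c averaged 0.820%, whereas Klrk1, which codes for the activating receptor NKG2D, had mean coverage of 99.8% and Tyrobp of 45.0%. Read depth was not given, so the depth behind each list is unknown.

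Th1 peaks were many and mostly narrow, while the widest 10% of peaks held most of the marked sequence. The lists held 42610, 46085 and 41504 peaks and covered 240.1, 222 and 217 Mb, or 226 ± 12.2 Mb on average (SD, n = 3). List 1 covered the most sequence and list 2 held the most peaks. The median width was 1285, 1115 and 1252 bp, with the middle 50% of peaks between 428 and 4232 bp on average. The widest 1% of peaks held 17.6% ± 0.361 of the covered bases, and the widest 10% held 62.2% ± 0.528. Peaks wider than 10 kb numbered 6015, 5518 and 5451, and peaks wider than 100 kb numbered 143, 105 and 108. The widest was 480.3, 474.6 and 475.4 kb, and in each list it lay in Foxp1.

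Wide peaks carried the higher enrichment. The fold enrichment that the authors deposited for each peak had a median of 2.01 ± 0.0180 for peaks under 1 kb, 5.07 ± 0.413 above 10 kb and 6.32 ± 0.644 above 50 kb. Peaks with a deposited −log10 q below 5 made up 77.3% ± 2.33 of the peaks and held 23.9% ± 2.93 of the covered bases. Without them the mean of the median widths was 10618 bp instead of 1217 bp. The smallest gap between neighbouring peaks was 733, 713 and 777 bp, which was 4.01 times the smallest peak width of 183, 178 and 194 bp in each list. The shortest peak and the shortest gap that a list could show therefore differed a little between lists.

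**Figure D1:**
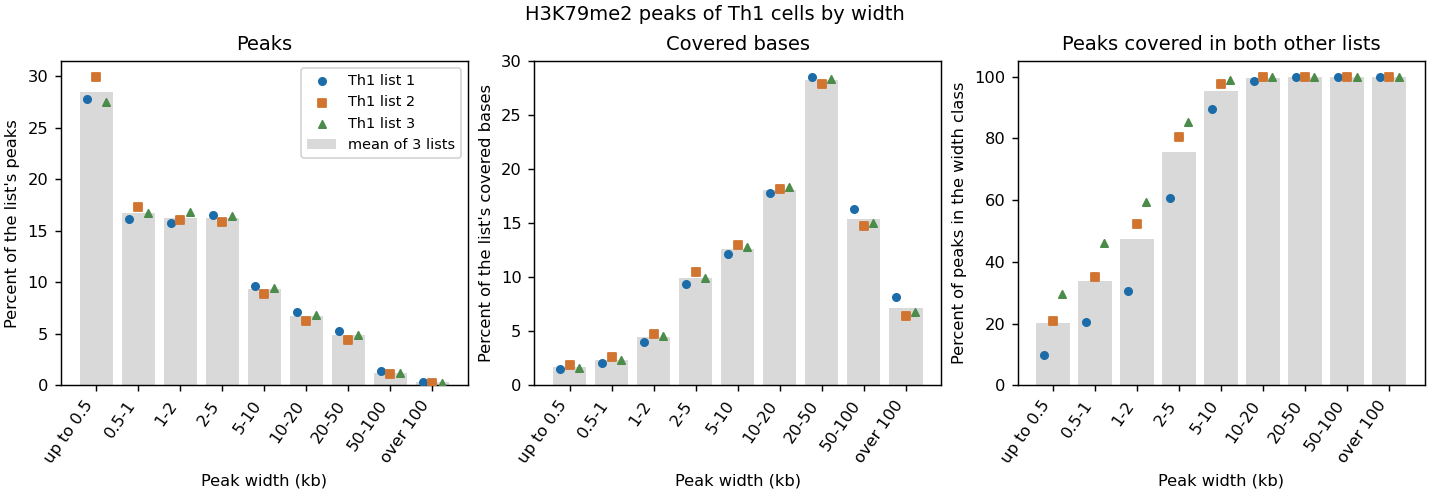
Share of peaks (left), share of covered bases (middle) and share of peaks of which at least 50% of the bases were covered in both other lists (right), in percent, by peak width in kb. Grey bars are means of the 3 Th1 lists and symbols are the lists. Peaks up to 0.5 kb are the most numerous class, peaks of 20 to 50 kb hold the most bases, and recurrence approaches 100% above 10 kb.

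Width also separated peaks that recurred from peaks that did not. A peak was counted as recurring if at least 50% of its bases were covered in both other lists. This held for 20.1% ± 9.86 of peaks up to 0.5 kb, for 95.3% ± 5.21 of peaks of 5 to 10 kb and for 100% of peaks above 50 kb. Of the 258.9 Mb covered in any list, 75.5% was covered in all 3, 11.3% in exactly 2 and 13.2% in exactly 1. The Jaccard index, the bases shared by a pair of lists divided by the bases covered in either, was 0.835, 0.823 and 0.829 for the 3 pairs. No peak had identical coordinates in any pair of lists.

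The mark lay in genes. Protein-coding genes held 87.8% ± 0.586 of the covered bases, their 5-kb flanks 5.10% ± 0.173, other annotated genes such as those of long noncoding RNAs 2.32% ± 0.0928, and the rest of the genome 4.82% ± 0.324. By number, 19.8% ± 1.34 of peaks touched no protein-coding gene, and these were narrow, with a mean of the list medians of 727 bp against 1464 bp for peaks that touched a gene. Gene bases were covered to 27.8% ± 1.17 on chromosome 11 and to 9.41% ± 0.649 on chromosome X, the highest and the lowest of the 20 chromosomes.

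Domain length rose with gene length up to a point, and full coverage belonged to short genes. Fully covered genes had a median length of 4.76 kb, against 17.3 kb for all 21627 genes. Full coverage was reached by 14.3% of genes of 2 to 5 kb, 1.49% of genes of 20 to 50 kb and no gene above 200 kb. The never covered share was 88.7% up to 2 kb, 34.7% at 50 to 100 kb and 77.4% above 500 kb. Among partly covered genes, the median domain was 4.42 kb for genes of 5 to 10 kb, 27.4 kb for genes of 50 to 100 kb and 48.4 kb for genes of 200 to 500 kb. The share of the gene under the domain ran the other way, from 61.9% to 40.4% and 18.4% in the same length classes. Across the 11166 genes with any covered base, gene length had a Spearman coefficient of 0.594 with domain length and −0.374 with percent covered. Both coefficients are across genes, which share the same libraries and are not replicates.

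**Figure D2:**
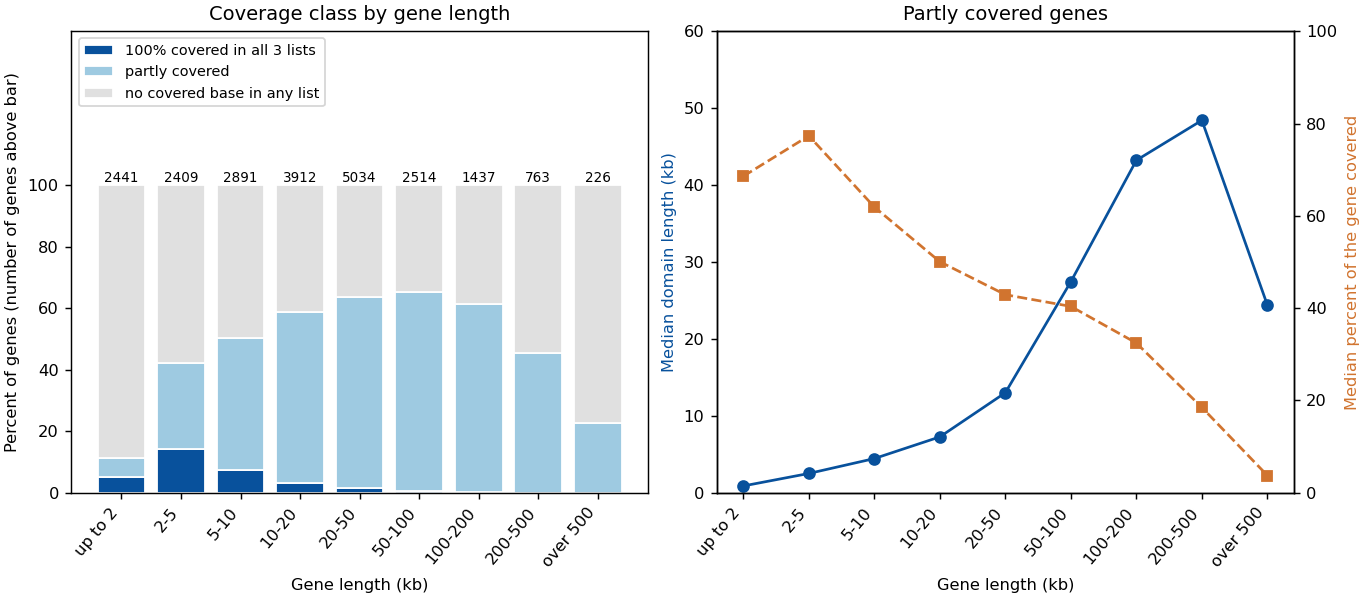
Left, percent of protein-coding genes that were fully, partly or never covered, by gene length in kb, with the number of genes above each bar. Right, median domain length in kb (blue circles, left axis) and median percent of the gene covered (orange squares, right axis) of the partly covered genes. Full coverage peaks at 14.3% in genes of 2 to 5 kb, and the median domain reaches 48.4 kb in genes of 200 to 500 kb.

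The partly covered class was mostly stable between lists. Of its 10264 genes, 8958 were partly covered in each list, 598 were full in 1 or 2 lists and 708 were at 0 in 1 or 2 lists. Of those 708, 654 had mean coverage under 10%. Mean coverage reached 90% or more in 1283 partly covered genes, 50 to 90% in 3589, 10 to 50% in 3754 and under 10% in 1638. Each list by itself had 1158, 952 and 994 genes at 100% and 10734, 10789 and 10929 genes at 0.

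The longest domains included those of Foxp1 and Bach2, regulators of T cell quiescence and differentiation. Foxp1, which codes for a forkhead factor that holds T cells in quiescence, led with 539.5, 534 and 545 kb of covered sequence in a gene of 597 kb on chr6:98925342-99522746. An unbroken stretch of 476.8 ± 3.05 kb made up most of it. Bach2, a repressor that restrains effector differentiation, was covered for 346.1, 346 and 346.7 kb of 348 kb, in 2 peaks per list. Its 3 values lay within 1 kb of each other. The widest unbroken stretches after these were on Msi2 (an RNA-binding protein) with 259 ± 11.9 kb, Etv6 (an ETS-family repressor) with 234 ± 0.299 kb and Gnaq (a G protein alpha subunit) with 200.3 ± 1.45 kb.

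Other long domains were pieced together from many peaks. Lpp, which codes for a LIM-domain protein of adhesion sites, had 547 kb in 31 peaks in list 1, 522 kb in 54 peaks in list 2 and 488 kb in 68 peaks in list 3. Inpp4b, a phosphoinositide phosphatase, had 351, 329 and 396 kb in 134, 130 and 129 peaks, or 45.3% of its 792 kb. Elmo1, a partner of DOCK proteins in Rac activation, had 367, 342 and 319 kb in 64, 62 and 63 peaks. Rabgap1l, a GTPase-activating protein for Rab proteins, had 320 kb, 261 kb and 226 kb. Weak peaks made up part of these domains. With peaks of −log10 q of at least 5 only, the mean domain was 98.1 kb for Rabgap1l, 157 kb for Inpp4b, 191 kb for Elmo1 and 355 kb for Lpp, beside 509 kb for Foxp1 and 346 kb for Bach2. Snd1, an RNA-binding nuclease gene, had 173 kb under these peaks. The rest of the 15 longest were Atxn1 with 379.8 ± 8.55 kb, the forkhead gene Foxn3 with 339.96 ± 8.45 kb, Snd1 with 320.01 ± 17.9 kb, Msi2 with 318 ± 5.56 kb, the Notch coactivator gene Maml2 with 304 ± 1.37 kb, the protein kinase C gene Prkca with 293 ± 3.57 kb, Sh3kbp1 with 293 ± 4.65 kb, Akap13 with 284 ± 3.16 kb and the BAF subunit gene Arid1b with 275 ± 6.41 kb. In all, 263 genes had a mean domain over 100 kb and together held 20.5% of the summed domain length, and 42 genes had one over 200 kb. Inpp4b, Foxn3, Snd1 and Rabgap1l overlap another protein-coding gene.

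**Figure D3:**
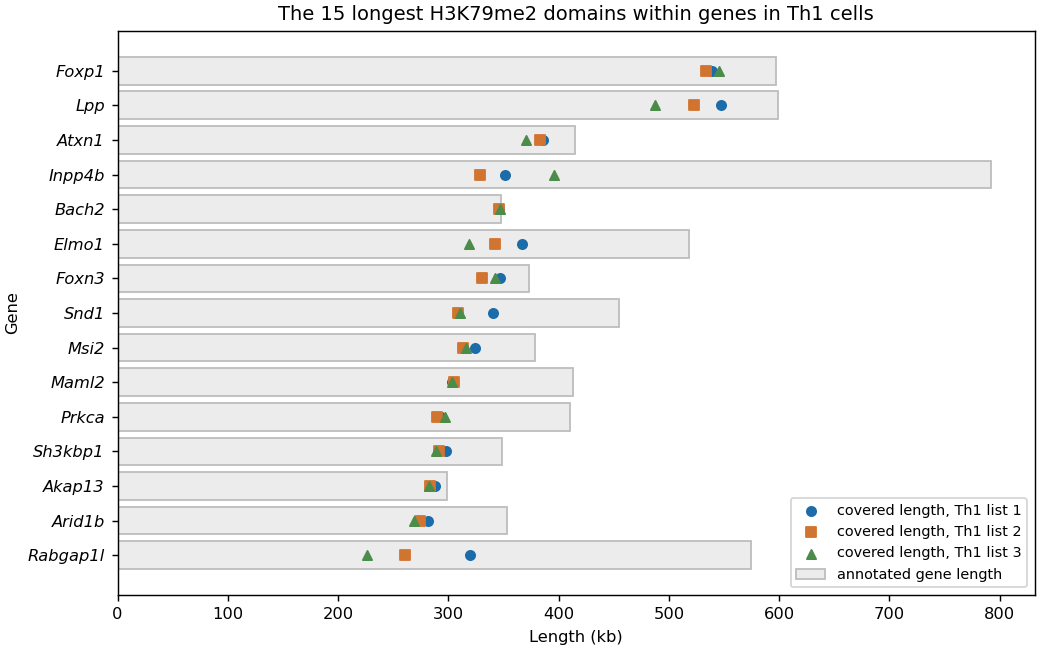
Covered length in kb in each Th1 list (symbols) and annotated gene length in kb (grey bars) of the 15 protein-coding genes with the longest mean domain. Symbols lie close together for Foxp1 and Bach2 and are spread for Lpp, Inpp4b and Rabgap1l.

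Full coverage of a long gene was rare. Only 4 genes over 100 kb lay under peaks from end to end in all 3 lists, and each was spanned by 1 peak per list. They were Prkch (protein kinase C eta) with 193 kb, Chd7 (a chromatin remodeller) with 178 kb, Bcl2 (the anti-apoptotic protein that keeps lymphocytes alive) with 176 kb and Tnfaip8 with 114 kb. Bcl11b, a factor needed for T cell identity, followed with 93.7 kb, then the anion channel subunit gene Lrrc8c with 93.7 kb, the ubiquitin ligase gene Znrf1 with 89.2 kb and Foxo1, a forkhead factor of survival and homing, with 81.8 kb. The rest of the 15 longest fully covered genes were Fam107b, the TGF-beta signalling repressor gene Ski, the cytohesin partner gene Cytip, the chondroitin synthase gene Chsy1, the GTPase gene Rab10, Agfg1 and Cd47, with 61.2 kb for the last. All 15 were also at 100% with peaks of −log10 q of at least 5 only. Prkch and Znrf1 overlap another protein-coding gene, and peaks cannot be assigned to one of them.

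The longest genes without a covered base included genes of muscle and brain. Dmd (dystrophin, the muscle membrane protein) spans 2390 kb, Ptprd 2271 kb and Cntnap2, a neurexin-family gene, 2241 kb, and none had a covered base in any list. Lsamp, Lrp1b, Macrod2, Dlg2, Csmd1, Nrxn3 and Ctnna3 completed the 10 longest. Of 24 neuronal genes 22 were never covered, and the covered ones were Astn2 with a domain of 10.9 ± 0.560 kb in a gene of 1024 kb and Magi2 with 0.846 ± 0.0827 kb in 1485 kb. All 21 muscle, liver and epithelial genes were never covered. So were 1102 of 1110 olfactory receptor genes, 352 of 353 vomeronasal receptor genes, 48 of 49 keratin genes, 37 of 39 Hox genes, 21 of 23 claudin genes and all 71 defensin genes. The never covered share was 48.4% over all genes and 88.7% over genes up to 2 kb, the length class of the median olfactory and vomeronasal receptor gene and the median defensin gene. The olfactory receptor genes Olfr1396, Olfr266 and Olfr525 were the 3 fully covered members of their family.

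Coverage fell from the 5′ to the 3′ end of genes. Strand was taken from the RefSeq promoter table, which gave it for 4883 partly covered genes over 20 kb and for none on chromosome 18. Each gene was split into 10 equal parts. Mean coverage was 70.9% in the first part of these genes, 44.7% in the fifth and 15.2% in the last, and it was 28.2% in the 5 kb upstream and 14.9% in the 5 kb downstream. The first part was covered more than the last in all 3 lists in 3713 genes (76.0%), and the last more than the first in 286 genes (5.86%). In partly covered genes of 5 to 20 kb the second part was covered most, at 79.7%, beside 71.2% in the first. In genes over 100 kb of which the first 10 kb were at least 50% covered on average, coverage was 89.98% ± 1.15 at 0 to 5 kb from the annotated start. It was 92.3% ± 1.78 at 5 to 10 kb, 77.3% ± 2.32 at 20 to 25 kb and 57.7% ± 2.51 at 50 to 55 kb. At 95 to 100 kb it was 37.6%. Those 625 genes were selected for a covered start. The level there was fixed by the choice, and with it part of the fall on both sides. Upstream of the same starts coverage was 26.7% ± 1.47 in the nearest 5 kb. Without that choice, partly covered genes of 100 to 200 kb had 61.9% in the first of the 10 parts and 11.9% in the last.

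**Figure D4:**
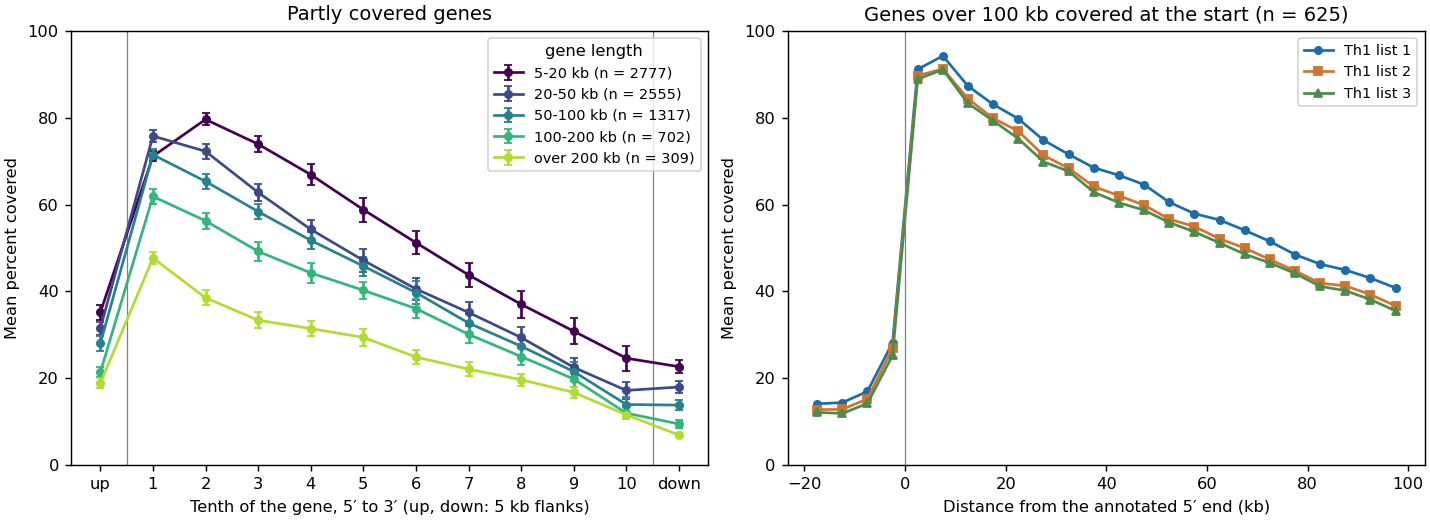
Left, mean percent covered in each of 10 equal parts of partly covered genes from 5′ to 3′ and in the 5-kb flanks, by gene length (points, mean of the 3 Th1 lists; bars, SD). Right, mean percent covered by distance in kb from the annotated 5′ end for 625 genes over 100 kb with a covered start, 1 line per list. Coverage falls towards the 3′ end in each length class. In the 625 genes, which were chosen for a covered start, it goes from 89.98% at the start to 37.6% near 100 kb.

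Single long genes showed the same gradient. In 229 of 1011 partly covered genes over 100 kb with a strand, the first part was at least 90% and the last part at most 10% covered in every list. Sox5 had 210, 199 and 179 kb of coverage over its 954 kb. Its first part was covered to 97.8% and its last to 0.981%. Dock2, the Rac exchange factor of lymphocyte migration, had 240.4, 203 and 197 kb of 557 kb, with 100% of the first part in each list. Prkca had no covered base in its last part in any list beside 99.9% in its first. The opposite arrangement was seen in 5 genes, namely Arhgef3, Spata13, Filip1l, St8sia1 and Septin9. The last part of Septin9 was covered to 99.8% and its first part to 0%, and the domain measured 120.9 ± 1.57 kb of 163 kb. In 8 genes both the first and the last part were at least 90% covered in every list.

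Some very long genes were covered over a small share. Fhit and Wwox, genes known as common fragile sites, had scattered short peaks. Fhit had 39.4, 24.4 and 9.27 kb of its 1612 kb in 37, 28 and 16 peaks, and Wwox had 40.2, 22.8 and 14.5 kb of its 913 kb in 32, 29 and 16 peaks. In both genes list 1 had the most coverage and list 3 the least. The phosphodiesterase gene Pde4d had 85.4, 76.1 and 78.4 kb of 1302 kb, of which an unbroken stretch of 51.1 ± 0.711 kb was the longest piece. At the middle of the range, the genes of at least 100 kb nearest to 50% coverage included the H3K4 methyltransferase gene Kmt2c with 122, 113 and 106 kb of 227 kb, the cohesin loader gene Nipbl with 89.0, 86.3 and 86.6 kb of 175 kb and the H3K9 methyltransferase gene Ehmt1 with 68.7, 63.6 and 61.1 kb of 129 kb.

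The Th1 programme was marked over most of its genes. Of 32 genes 11 were fully covered (34.4%, against 4.17% of all genes), 18 were partly covered and 3 were never covered, and the median coverage was 91.7%, against 0.607% over all genes. Tbx21, which codes for the Th1-defining factor T-bet, was covered over all of its 17.3 kb in each list. Runx3, its partner at the Ifng locus, was covered for 57.3, 56.7 and 56.1 kb of 57.3 kb. Hlx, Irf1, Fasl, Gzmb, Nkg7, Ccl3, Ly6c2 and Il10 were also fully covered. Ifng was fully covered, over 4.85 kb, but it was the gene the cells were sorted on. The receptor genes of the Th1-inducing cytokines were marked as well. Il12rb2, the inducible chain of the IL-12 receptor, was covered to 96.4% ± 1.54, Il12rb1 to 81.3%, Il18r1 to 77.7% and Il18rap to 87.4%. Genes of cytokine signal transducers in the list differed in extent. Stat4 had 74.9, 70.5 and 69.4 kb of 120 kb, Jak1 104, 102 and 105 kb of 113 kb, Jak2 42.9, 36.1 and 40.8 kb of 61.3 kb and Tyk2 6.12, 3.22 and 4.23 kb of 27.3 kb. Tyk2 was thus the least covered of these 4 genes, at 16.6%.

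The remaining Th1 genes showed gradations. Eomes, the T-box relative of Tbx21, was covered to 42.7%, 42.7% and 56.7%. The perforin gene Prf1 and the factor gene Bhlhe40 were covered to 99.9% and 99.8%, Ifngr1 to 92.0%, Cxcr3 to 90.9%, Ccl4 to 88.9%, the inhibitory receptor gene Havcr2 to 88.8%, and the chemokine gene Ccl5 to 35.6%. The never covered members were Ifngr2 (the signalling chain of the interferon-gamma receptor, 16.9 kb), Xcl1 and Twist1. Jak1, Il12rb2, Ccl3 and Ccl4 overlap another protein-coding gene.

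Genes of other helper lineages had a median coverage of 30.7%, below that of the Th1 list and above the 0.607% over all genes. Of 23 genes 2 were fully covered (8.70%, against 4.17% of all genes), 14 partly and 7 never (30.4%, against 48.4%). That median was 0% with peaks of −log10 q of at least 5 only. The Th1 median above was taken over all peaks and cannot be set beside this 0%. Il21, a cytokine of follicular helper cells, and Ctla4, an inhibitory receptor of activated and regulatory T cells, were the fully covered members. Gata3, the Th2-defining factor, had 19.1, 18.3 and 17.9 kb of 30.9 kb. Bcl6, which defines follicular helper cells, had 13.5, 11.95 and 11.93 kb of 23.8 kb. Foxp3, which defines regulatory T cells, had 2.77, 1.23 and 1.85 kb of 15.6 kb. Il2ra, a receptor chain induced by activation, was covered to 91.9%, Ccr8 to 94.0%, Il23r to 62.8%, Cxcr5 to 61.1%, Ccr4 to 43.0%, Ikzf2 to 41.1%, Il1rl1 to 30.7% and Rora to 11.2%. The Th2 cytokine genes differed between lists. Il4 was covered to 47.1%, 0% and 21.8%, and Il13 to 43.6%, 0% and 9.17%, so that list 2 had no peak on either. Il5, Il9, Il17a, Il17f, Il17rb, Ccr6 and Ptgdr2 were never covered. Cxcr5, Foxp3 and Ptgdr2 overlap another protein-coding gene.

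**Figure D5:**
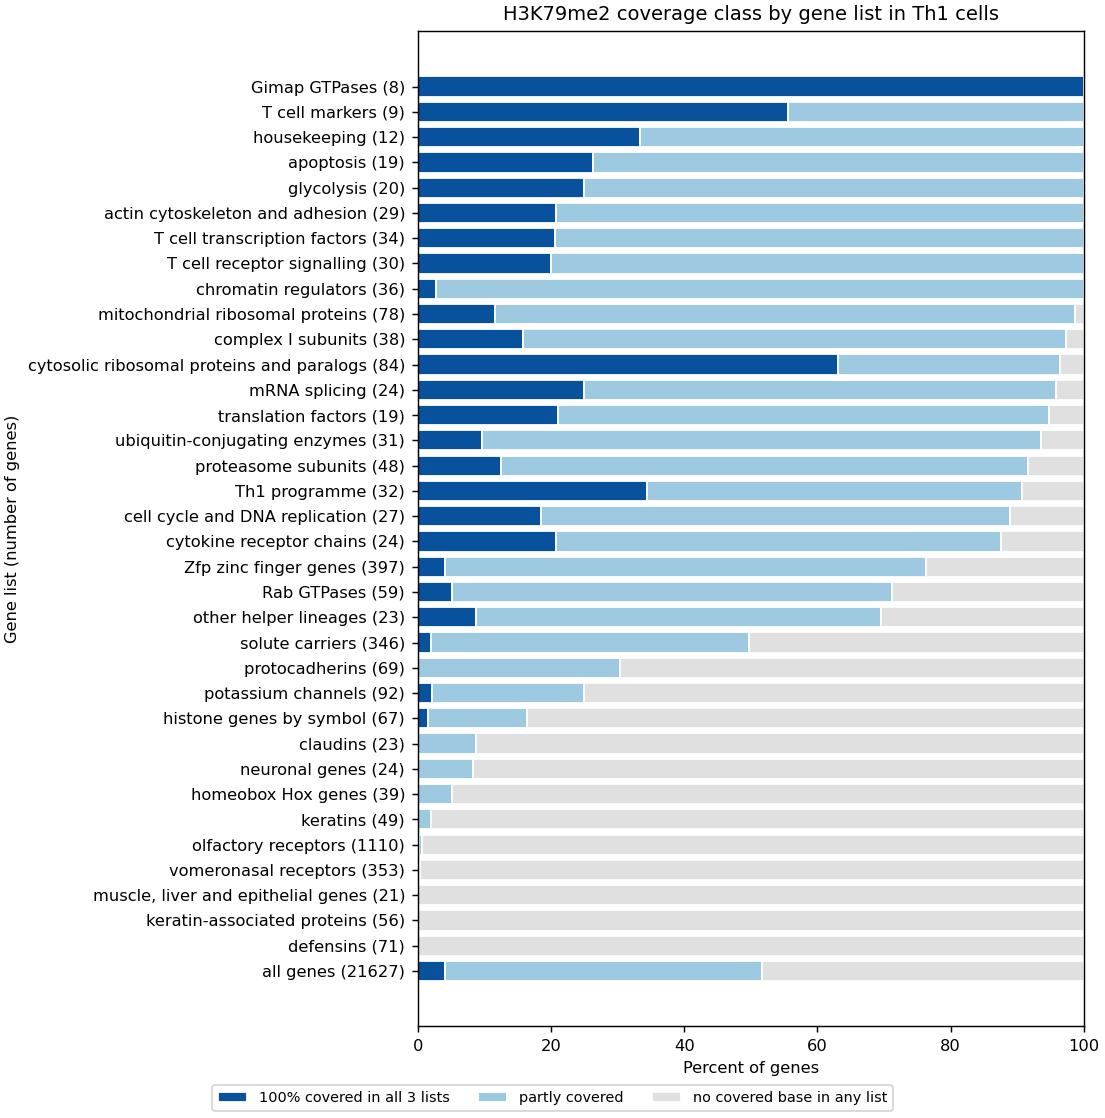
Percent of genes that were fully, partly or never covered in each gene list of at least 8 genes and among all 21627 protein-coding genes, with the number of genes in brackets. T cell, metabolic and ribosomal lists lie at the covered end, and sensory receptors, keratins, Hox genes and defensins at the uncovered end.

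T cell transcription factors and the T cell receptor pathway had a domain on every listed gene. The shares over all genes were 4.17% full and 48.4% never covered, with a median coverage of 0.607%. Of 34 transcription factor genes 7 were fully covered (20.6%) and 27 partly, with a median coverage of 96.2%. Beside Foxp1 and Bach2 the longest domains in the list were on Runx1 with 209 ± 3.39 kb and Tcf12 with 180.4 ± 6.73 kb. The fully covered members were Bcl11b, Foxo1, Zbtb7b (the CD4 lineage factor ThPOK), Gfi1, Maf, Klf2 and Id2. Prdm1, the effector repressor Blimp, was the least covered at 26.1%, and the lists gave 24.8, 22.9 and 23.8 kb of its 91.4 kb. Relb followed at 36.8%, Tox at 41.8% and Tcf3 at 53.2%. Tox, a factor of sustained stimulation, had 112, 114 and 156 kb, with list 3 above the other two. Of 30 T cell receptor signalling genes 6 were fully covered and 24 partly, with a median of 96.0%. The longest domains were on Skap1 with 206 ± 17.4 kb, Themis with 203 ± 1.86 kb, the Src-family kinase gene Fyn with 188 ± 1.74 kb and the ubiquitin ligase gene Cblb with 172 ± 1.57 kb. Cd28, Cd6, Pik3cd, Lat, Cd3e and Cd3d were the fully covered members. Low values were 65.7% for Fyb, 69.9% for Skap1 and 72.0% for Plcg1.

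Receptors and survival genes were uneven. Of 24 cytokine receptor chains 5 were fully covered (20.8%, against 4.17% of all genes), 16 partly and 3 never (12.5%, against 48.4%). The common gamma chain gene Il2rg, Il7r, Il6ra, Il10ra and Tnfrsf1b were full, and Csf2rb, Il5ra and Epor, receptor chains of myeloid, eosinophil and erythroid cells, were never covered. Of 19 apoptosis genes 5 were fully (26.3%) and 14 partly covered, with Bcl2, Birc5, Mcl1 and Bax among those at 100%. Bcl2l11, which codes for the death-promoting protein BIM, was covered to 99.3%, and Casp9 to 25.5%.

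All 20 glycolysis genes and 24 of 27 cell cycle genes had a domain in at least 1 list, beside 48.4% of all genes never covered. The glucose transporter gene Slc2a1 was covered over all of its 28.6 kb, and Aldoa, Gapdh, Tpi1 and the lactate exporter gene Slc16a3 were also full. The isoform genes differed, with 91.7% ± 2.53 for Ldha and 0%, 0% and 2.11% for Ldhb, and with 92.0% for Hk2 and 54.7% for Hk1. Of the 27 cell cycle genes 5 were full, 19 partly covered and 3 never covered. Top2a, Cdk2, Aurkb, Cdkn1b and Pcna were full, and Cdk6 had a domain of 182 ± 2.76 kb in 190 kb. Among the D-type cyclins, Ccnd3 was covered to 99.7% and Ccnd2 to 80.6%, whereas Ccnd1 was never covered. Cdkn2a and the ribonucleotide reductase gene Rrm2 were the other never covered members.

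Ribosomal protein genes were the most fully covered of the large families. Of 84 genes 53 were at 100% in all 3 lists (63.1%, against 4.17% of all genes), 28 were partly covered and 3 were never covered. Full coverage differed with gene length, and its highest share in any length class was 14.3%, in genes of 2 to 5 kb. The 3 without a covered base were the paralogs Rpl10l, Rpl32l and Rpl39l. Reads from near-identical copies could be placed on either, so such members are uncertain. The families that follow stand beside the same 4.17% full and 48.4% never covered over all genes. Mitochondrial ribosomal protein genes were mostly partly covered, with 9 full, 68 partly and 1 never covered of 78 and a median of 65.4%. Complex I subunits had 6, 31 and 1 of 38 with a median of 80.8%, and proteasome subunits 6, 38 and 4 of 48 with 73.2%. Of 19 translation factor genes, Eef1a1, Eef1g, Eif4a1 and Eif1 were full and 14 were partly covered. Eef2, the elongation factor that moves the ribosome along, had no covered base in any list. Of 24 splicing genes 6 were full, and Rbfox2 was never covered. Of 67 histone genes 56 were never covered (83.6%), and H1f0 was the full one. Their median length was 0.496 kb, and 88.7% of all genes up to 2 kb were never covered.

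Chromatin regulators had long but incomplete domains, with 1 full and 35 partly covered of 36 and a median of 79.5%. Over all genes 4.17% were full and 48.4% were never covered, with a median of 0.607%. Dot1l, the writer of the mark, was covered for 40.4, 34.0 and 37.4 kb of 40.4 kb. The genes of its partners were covered as well, namely Mllt3 for 239 ± 0.378 kb of 263 kb, Mllt10 for 142 ± 2.24 kb of 157 kb, Mllt1 for 35.0 kb of 42.9 kb and Aff1 for 95.7 ± 7.15 kb of 163 kb. The remodeller gene Arid1a stood at 99.8% and the H3K27 methyltransferase gene Ezh2 at 92.8%. Hdac7 was the full member, and Tet1, at 33.8%, was the least covered. Actin and adhesion genes had 6 full and 23 partly covered of 29. Elmo1, Arhgap15 and Dock2 held the longest domains, and Dock8, at 22.6%, and the integrin gene Itga4, at 22.9%, were the least covered. Zfp zinc finger genes had a median of 35.8% with 94 of 397 never covered (23.7%, against 48.4% of all genes). Solute carriers, with 174 of 346 never covered (50.3%), were close to the share over all genes. Of 92 potassium channel genes 69 were never covered, a larger share than the 48.4% of all genes. Kcna3 and Kcnn4, the potassium channels known from activated T cells, were the 2 full channel genes of 92, beside 4.17% full over all genes. Kcnq5 had the longest domain of the channel list with 251 ± 39.9 kb, and Kcnk5 was covered to 99.9%.

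The 3 lists differed in how far they covered single genes. The median range of percent covered between lists was 5.35 points over the partly covered genes. The widest range among genes of at least 5 kb was found on H2bc4, with 67.1%, 13.2% and 0%. Mycn, a relative of Myc, was covered to 65.4% and 66.9% in lists 1 and 2 and to 0% in list 3. Zbtb16, which codes for PLZF, the factor of innate-like T cells, had 106, 9.32 and 0 kb of 184 kb in 32, 18 and 0 peaks. Klrc2, a killer lectin-like receptor gene, was covered to 71.1%, 41.0% and 19.3%. The other genes of the widest 10 were Ptger1, Itpripl2, Pram1, Lrrtm2, Elmo3 and Abtb1. List 1 was the highest in 8 of these 10, and list 1 also covered the most sequence. The part of that in these differences was not tested.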

How the data were processed

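H3K79me2 was measured by ChIP-seq in 3 libraries of Th1 cells. The submitters' processing notes name Bowtie2, MACS2, Picard and SAMtools and the build mm10. Tool versions, their settings, and whether peaks were called against an input are not given in the sources used here. Each library had its own broad peak list, so peaks were called per sample. The authors deposited for each peak a display score, a fold value (enrichment as a ratio over the background of the peak caller) and the −log10 of p and q. These are the authors' values and were used only to describe or filter peaks within a list. More reads or less background could widen the covered sequence, which was not tested.

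Peaks on chromosomes 1 to 19 and X were merged, and the bases of each protein-coding gene under them were counted with Python 3 scripts (numpy, pandas), tested on simulated data. Gene spans came from the RefSeq table of GRCm38.p6, the assembly of mm10, and 3839 genes (17.8%) overlap another, so that their values are uncertain. Among those named and not marked in the text are Mllt10, Hdac7, Dock2, Dock8, Itga4, Filip1l, Plcg1, Tpi1, Slc16a3, Ccnd1, Ccnd3, Cdk2, Bcl2l11, Casp9, Zbtb16, Ptger1, Lrrtm2, Nipbl, Astn2, Dmd, Lsamp, Macrod2, Csmd1 and Ctnna3. Coordinates are 1-based. Errors are SD over the 3 lists.

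The members, gene lists and rules were chosen with earlier results of these data known, so no list is independent support. Genes named are the 15 longest domains, the 15 longest fully covered, the 10 longest never covered, the 10 of at least 5 kb with the widest range, the longest partly covered genes, genes under the widest peaks, the extremes of each list, and all members of the Th1, helper and marker lists. A few further list members, such as full ones, the isoform pairs and the paralogs, and the genes of end-tenth patterns were named after their values were seen. Alternatives were stricter peaks, joined peaks, other class thresholds and gene filters, and leaving out each list. Values of a few listed genes are not reported here.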

Additional observations from a re-analysis of the deposited data

How the results depend on the processing

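Leaving out each list kept covered length at 219 to 231 Mb, median width at 1184 to 1269 bp, full genes at 930 to 1032, partly covered genes at 10013 to 10091, never covered genes at 10556 to 10606 and the median domain at 8.09 to 8.53 kb, against 8.22 kb with 3 lists. With peaks of −log10 q of at least 5 only, lists covered 173 Mb, the median width was 10618 bp and 891 genes were full. Joining peaks up to 1 kb apart gave a median width of 1549 bp and 1114 full genes. Calling a gene full at 95% or more gave 1382, by construction. Genes of at least 5 kb alone gave 433 full and 6905 never covered genes and a median domain of 9.97 kb. The median domain was 9.91 kb when genes under 10% counted as uncovered, and 8.77 kb without genes that overlap another. Of 10 equal parts of partly covered genes over 20 kb, the first 5 were covered more than the last 5 in 84.2% of genes per list, and the first part more than the last in 80.3%. With the stricter peaks the 15 longest full genes kept their length, each of the 15 longest domains was shorter by more than 1 SD, and 11 of these remained among the 15 longest. Among never covered genes the share of TATA box promoters was 14.1% with genes of at least 5 kb, against 21.0%. No paired analysis was possible because the values come from no test. Unknown depth limits what a gene at 0 shows. No peak was called there, which is not absence of the mark.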

Other observations

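Some of the widest Th1 peaks lay outside protein-coding genes, on genes of long noncoding RNAs. The widest region without a protein-coding gene that all 3 lists covered was 159.6 kb long, on chr6:31064917-31224552 (GRCm38.p6), and held Lncpint. The peaks there measured 167 kb, 159.8 kb and 159.7 kb. Downstream of Myc, Pvt1 lay under a peak of 190.8 kb in lists 1 and 2, whereas list 3 had peaks of 101.6 and 87.8 kb there. Morrbid, a noncoding RNA known to regulate Bcl2l11, lay under peaks of 129 kb, 103 kb and 100.4 kb. The region there that all 3 lists covered was 174 kb from Bcl2l11. Dleu2, the host of Mir15a and Mir16-1, lay under peaks of 59.3, 51.4 and 56.7 kb. Regions of 52.6 kb with Gm27162 and of 51.2 kb with Gm20098 had Ets1 and Satb1 as their nearest protein-coding genes, at 139 and 38.6 kb. A region of 47.9 kb near Gadd45g and another of 47.6 kb, 76.9 kb from 4933412E24Rik, had no annotated gene in it.

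Some single peaks held a cluster of whole genes. On average 140.7 ± 23.5 peaks per list held at least 2 whole protein-coding genes. A peak of 117 kb in lists 1 and 2 and 113 kb in list 3 held 7 Gimap genes, which code for GTPases of lymphocyte survival. All 8 listed Gimap genes were at 100%, against 4.17% of all genes. The 7 under this peak are a single covered region and not separate observations. A peak of 87.9, 87.5 and 105 kb on chromosome 17 held Tnf, Lta, Ltb, Lst1, Aif1, Nfkbil1 and Atp6v1g2, with Ddx39b added in list 3. The sperm protamine genes Prm2 and Prm3 and the transition protein gene Tnp2 lay whole under the peak of 47.9, 47.7 and 44.6 kb that held Socs1, an inhibitor of cytokine signalling.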
